A study of Mus musculus with 12 samples.

Results

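Interferon-stimulated genes were examined in tongue from mice with chemically induced oral carcinogenesis. There were 6 libraries from mice gavaged with gallic acid (GA, a plant phenol) and 6 from mice gavaged with vehicle. The set held 40 genes, taken by name as known interferon-stimulated genes, out of 23072 named genes with a value above 0 in any library. Within it, 12 genes of the Isg15, Ifit, Oas and Mx families formed the type I group, and 6 genes (Gbp2, Gbp3, Gbp5, Gbp7, Igtp and Cxcl9) formed the gamma group. All mice were C57BL/6 and all drank 4-nitroquinoline 1-oxide (4NQO), a DNA-damaging carcinogen, at 100 µg/mL for 16 weeks, followed by plain water until sacrifice. From 4 weeks after the start of 4NQO, gavage 5 times weekly delivered either GA (100 mg/kg) or the vehicle alone, so that the Vehicle group is a 4NQO-exposed group and no unexposed tongue enters the comparison. Each library was bulk RNA of a tongue sample labelled as tumor and tumor-associated tissue, and age at sampling was not given in the labels.

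Interferons are secreted proteins that signal to neighbouring cells through paired receptors, JAK kinases and STAT transcription factors. Type I interferons act mainly through a STAT complex with IRF9 that binds the interferon-stimulated response element (ISRE), whereas interferon gamma acts through STAT dimers that bind the gamma-activated site (GAS) and through IRF1. The induced genes block viral replication, attract lymphocytes and raise antigen presentation, and many of them respond to both kinds of interferon. In the tongue mucosa, epithelial cells, resident myeloid cells and infiltrating lymphocytes can all carry this response, and in bulk tissue fewer cells of a type and less RNA per cell cannot be told apart.

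Libraries held 18040152 to 21770340 reads in the Vehicle group and 21237167 to 25192491 in the GA group, as recovered from the deposited values, and no 2 libraries of a group were copies (Spearman rho 0.929 to 0.955 over genes). Values are given as FPKM, reads scaled to the length of the gene and the size of the library, after further scaling between libraries, which allows levels of different genes to be compared. Keratins and other oral epithelial markers (8 genes) summed to 13886 FPKM or more in every library. Vehicle libraries 3 and 5 and GA library 2 stood apart in gland markers, which summed to 8838 to 29075 FPKM against at most 5.5 in the others. Reads on Y-linked genes were present in Vehicle libraries 1 to 4 and GA library 1 (3345 to 4535 reads) and were 0 in the other 7. Sex is not given in the labels. The labels give replicate numbers and no animal identifiers, and p-values measure the spread between these libraries.

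All 40 genes had a mean of at least 0.1 FPKM, the limit for testing. Levels were low to moderate. In the Vehicle group, Ifi27l2a (a mitochondrial membrane protein gene strongly induced by interferon) had the highest mean, 28.6 ± 22.4 FPKM (SD, n = 6), followed by Bst2 (tetherin, which holds budding virus at the cell surface) at 17.1 ± 8.95, Gbp2 at 13.8 ± 7.84 and Isg15 at 11.5 ± 11.6. Neighbours in this order differed by less than the SD of the higher gene. The lowest was Mx2, of the dynamin-like GTPase family, at 0.177 ± 0.130 FPKM, which rested on 0 to 25 reads per Vehicle library.

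Promoter sequence was available in RefSeq tables (GRCm38.p6) for 30 of the 40 genes. It covered 250 bases before and 50 bases after the annotated start. The ISRE was searched as GAAA, any 2 bases and GAAA again, on both strands, and was present in 17 of the 30 genes, compared with 3.84% of the tested genes found in the same table. The GAS was searched as TTCNNNGAA, which reads the same on both strands, and was present in 8 of the 30 against 8.25% of tested genes. The 2 motifs overlapped each other in 1 gene, Bst2, and copies of the ISRE overlapped in 5 genes. Among genes in the table, 6 of 9 in the type I group and 5 of 6 in the gamma group held the ISRE letters. A match is only a string of letters, and the absence of a match says nothing about binding elsewhere. The 250 bases before the start are shown as examples for 3 type I genes, 3 gamma genes and Irf1, and capitals mark the ISRE or GAS letters. The window of Cxcl9, the gamma gene without the ISRE letters, held no GAS letters either and is not shown.
Isg15 (chr4:156200819-156201068, minus strand): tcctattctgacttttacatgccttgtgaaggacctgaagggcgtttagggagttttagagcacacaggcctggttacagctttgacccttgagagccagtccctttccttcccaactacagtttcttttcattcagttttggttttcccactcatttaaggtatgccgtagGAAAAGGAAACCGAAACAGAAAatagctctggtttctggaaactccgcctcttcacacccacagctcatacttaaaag
Ifit1 (chr19:34640639-34640888, plus strand): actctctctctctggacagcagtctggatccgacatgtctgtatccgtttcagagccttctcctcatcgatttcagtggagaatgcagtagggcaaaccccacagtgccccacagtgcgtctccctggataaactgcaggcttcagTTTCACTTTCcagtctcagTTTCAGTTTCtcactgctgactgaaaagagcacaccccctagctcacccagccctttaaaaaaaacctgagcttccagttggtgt
Oas1a (chr5:120907526-120907775, minus strand): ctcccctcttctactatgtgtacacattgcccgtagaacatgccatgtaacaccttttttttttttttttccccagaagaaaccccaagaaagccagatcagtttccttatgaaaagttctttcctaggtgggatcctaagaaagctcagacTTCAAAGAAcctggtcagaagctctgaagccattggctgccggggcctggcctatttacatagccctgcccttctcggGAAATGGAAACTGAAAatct
Gbp2 (chr3:142620413-142620662, plus strand): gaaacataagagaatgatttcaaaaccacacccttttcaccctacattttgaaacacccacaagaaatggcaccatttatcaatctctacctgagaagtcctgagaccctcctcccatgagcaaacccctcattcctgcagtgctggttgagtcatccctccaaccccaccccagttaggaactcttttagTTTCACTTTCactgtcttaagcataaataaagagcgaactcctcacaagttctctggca
Gbp5 (chr3:142496684-142496933, plus strand): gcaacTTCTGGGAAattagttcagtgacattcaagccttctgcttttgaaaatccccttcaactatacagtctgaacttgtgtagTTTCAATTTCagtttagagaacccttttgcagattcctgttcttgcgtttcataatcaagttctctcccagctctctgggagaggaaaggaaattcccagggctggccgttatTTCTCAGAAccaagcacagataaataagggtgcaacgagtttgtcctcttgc
Igtp (chr11:58199306-58199555, plus strand): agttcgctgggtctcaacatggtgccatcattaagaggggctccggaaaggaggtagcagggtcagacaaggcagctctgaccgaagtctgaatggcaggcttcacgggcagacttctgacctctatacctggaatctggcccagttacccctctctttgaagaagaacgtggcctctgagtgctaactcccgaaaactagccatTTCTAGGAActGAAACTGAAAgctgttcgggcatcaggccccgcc
Irf1 (chr11:53769764-53770013, plus strand): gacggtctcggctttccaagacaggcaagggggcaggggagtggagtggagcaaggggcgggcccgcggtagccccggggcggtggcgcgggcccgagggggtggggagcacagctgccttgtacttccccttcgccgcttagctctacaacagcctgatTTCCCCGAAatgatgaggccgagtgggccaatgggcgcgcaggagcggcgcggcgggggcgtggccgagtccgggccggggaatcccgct
The Isg15 window held 3 overlapping ISRE copies, which began 78, 72 and 66 bases before the start. Ifit1 held 2 on the opposite strand, at 104 and 85 bases. Gbp2 held 1 ISRE, at 59 bases and on the opposite strand, and no GAS letters. Oas1a held 2 overlapping ISRE copies, at 20 and 14 bases, and a GAS at 98 bases. Gbp5 and Igtp held both motifs, and Irf1 held a GAS at 90 bases with no ISRE.

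With GA, 0 of the 40 genes were called by limma (adjusted p below 0.1 and a log2 fold change of 0.58 or more in either direction), where 0% of the 16847 tested genes were called. At an unadjusted p below 0.05, 0 of 40 passed, against 2.16% of all genes (364 genes). At an unadjusted p below 0.1 with the same limit of fold change, 0 of 40 passed, against 1.95%. Mean levels were higher with GA for 18 genes and lower for 22, with a median log2 fold change of -0.03, compared with 0.00 for all tested genes, of which 49.1% were lower. In each of the 40 genes the range of the GA libraries overlapped that of the Vehicle libraries, and 0.0653% of all genes did not overlap. All 40 adjusted p-values were 1.00 in limma, so they are not repeated below. In simulated data for all 16847 genes in this comparison, the fit recovered 148 of 200 genes changed by 1 on the log2 scale and 171 of 200 changed by 2, but most interferon-stimulated genes varied more than the average gene. The changed genes were drawn from those with a mean log2 level above 0, and each gene was simulated independently. Some of the 40, such as Mx1 and Mx2, lay below that level, so the recovered share does not describe them.

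**Figure D1:**
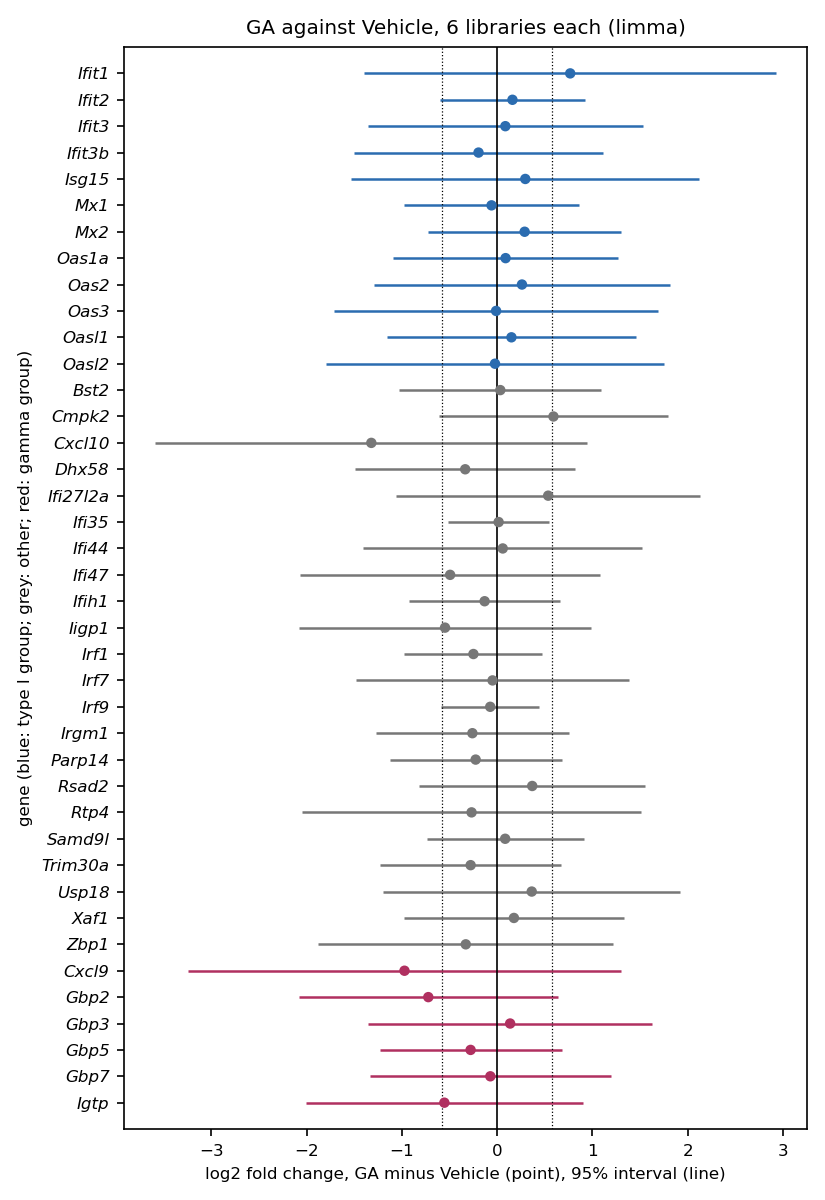
Log2 fold change, GA minus Vehicle, for 40 interferon-stimulated genes (points) with the 95% interval from limma (lines, 6 libraries per group); dotted lines mark 0.58 in either direction. Every interval crosses 0, from Cxcl10 at -1.32 to Ifit1 at 0.77.

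Isg15 encodes a ubiquitin-like protein that is attached to other proteins after interferon exposure (chromosome 4 of GRCm38, 156199424 to 156200818). Its level was lowest at 1.42 FPKM, with a median of 8.56 and a highest value of 33.2 in the Vehicle group, and 1.58, 8.82 and 57.9 with GA. Both medians were close, and the highest values of both groups, in Vehicle library 6 and GA library 1, stood well above the rest. The log2 fold change was 0.30 (standard error 0.84, 95% interval -1.53 to 2.12, exact permutation p = 0.760, two-sided, n = 6 per group). Usp18, the protease that removes ISG15 from its targets and restrains the type I receptor, ran from 0.0388 to 2.96 FPKM with vehicle and from 0.327 to 4.44 with GA. Its log2 fold change was 0.36 (standard error 0.72).

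The Ifit genes encode proteins that bind foreign RNA lacking host cap methylation. Ifit1 (chromosome 19, 34640871 to 34650009) had the most positive fold change of the 40, with values of 0, 2.13 and 5.80 FPKM (lowest, median, highest) with vehicle and 0.409, 1.84 and 9.61 with GA. The median was lower with GA although the mean log2 level was higher, and Vehicle library 1 had 0 Ifit1 reads. The log2 fold change of 0.77 (standard error 1.00, interval -1.39 to 2.93) depends on the pseudocount, and it ranged from -0.82 to 1.32 over the alternative settings. Ifit2 was the steadiest of the family, at 0.592, 2.22 and 2.73 FPKM with vehicle and 1.13, 2.21 and 2.84 with GA. Ifit3 and Ifit3b gave log2 fold changes of 0.09 and -0.20, and both were highest in Vehicle library 3. Of their transcript sequences read in stretches of 50 bases, 51.2% of Ifit3 and 45% of Ifit3b also lie in the other gene, so how reads were divided between them is uncertain.

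Oas enzymes sense double-stranded RNA and activate RNase L. The log2 fold changes of the Oas and Oas-like genes lay between -0.02 (Oasl2) and 0.26 (Oas2). Oas1a (chromosome 5, 120896256 to 120907521) was at 1.58, 5.22 and 13.8 FPKM with vehicle and at 1.87, 5.92 and 14.9 with GA. Both ranges were nearly the same, and 57.6% of Oas1a sequence is shared with Oas1g and Oas1b. Oas3 spanned the widest fold range of the family, from 0.00763 to 2.36 FPKM with vehicle and 0.0795 to 2.24 with GA (1 to 360 reads). The dynamin-like GTPases Mx1 and Mx2 stayed below 0.8 FPKM in every library. Their log2 fold changes were -0.06 for Mx1 (standard error 0.42) and 0.29 for Mx2 (standard error 0.47). Which Mx1 and Mx2 alleles these C57BL/6 mice carried was not examined. Taking the 12 type I genes, 8 had a higher and 4 a lower mean with GA, and the median log2 fold change was 0.12. This median was below 0 when Vehicle library 1 or 4 or GA library 1 or 6 was left out.

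Among 11 other antiviral effectors, 8 had a higher mean with GA. Ifi27l2a was at 5.52, 24.3 and 62.5 FPKM with vehicle and 7.53, 25.8 and 125 with GA, with GA library 1 alone above the highest Vehicle value by a wide margin and GA library 2 (69.9) just above it. For Cmpk2, a mitochondrial nucleotide kinase, the log2 fold change was 0.59 (standard error 0.56), and for Rsad2 (viperin) it was 0.37 (standard error 0.55). Parp14 and Trim30a were on the other side at -0.23 and -0.28. Ifi35 varied least of this set, from 3.68 to 11.2 FPKM with vehicle and 4.46 to 9.45 with GA, and 16.8% of its exon sequence lies over neighbouring genes. The sensors Ifih1 (MDA5), Dhx58 (LGP2) and Zbp1, which detect viral nucleic acid, all had lower means with GA, at -0.13, -0.33 and -0.33 on the log2 scale.

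Of the transcription factors, Irf7 drives the second wave of type I interferon genes, Irf9 is a DNA-binding part of the complex that recognises the ISRE, and Irf1 carries the gamma response. Irf7 was at 0.572, 3.33 and 5.79 FPKM with vehicle and at 0.903, 1.98 and 7.99 with GA (log2 fold change -0.05, standard error 0.66). Irf9 had the smallest spread of all 40 genes (SD 0.42 on the log2 scale over 12 libraries). Its values were 3.87, 5.39 and 8.74 FPKM with vehicle and 3.91, 4.94 and 10.1 with GA. Irf1 (chromosome 11, 53770014 to 53778374) was at 1.55, 4.58 and 6.48 FPKM with vehicle and 2.0, 3.87 and 5.21 with GA. The log2 fold change was -0.25 (exact permutation p = 0.504, standard error 0.33, n = 6 per group). All 3 factors thus had overlapping ranges and small mean differences.

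The gamma group lay mostly on the lower side with GA, in 5 of 6 genes, with a median log2 fold change of -0.42 that ran from -0.83 without Vehicle library 1 to -0.18 without GA library 4. Guanylate-binding proteins attack vacuoles that hold microbes. Gbp2 (chromosome 3, 142620602 to 142638008) was at 1.46, 14.0 and 22.4 FPKM with vehicle and 2.63, 6.07 and 14.4 with GA. Only 1 of 6 GA libraries (library 2) exceeded the Vehicle median, but the lowest value of all was in Vehicle library 1. The log2 fold change was -0.72 (standard error 0.63, interval -2.08 to 0.64, exact permutation p = 0.323, n = 6 per group). Gbp3 was the exception in direction at 0.14, Gbp5 was at -0.28 and Gbp7 at -0.07. Igtp, an immunity-related GTPase of the same defence, was at 1.05, 8.5 and 18.4 FPKM with vehicle and 1.53, 4.70 and 10.9 with GA (log2 fold change -0.55, standard error 0.67). The related GTPases Irgm1, Iigp1 and Ifi47 gave -0.26, -0.55 and -0.49.

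The chemokines Cxcl9 and Cxcl10 recruit activated T cells through CXCR3, and they had the lowest fold changes and the widest spread of the 40 genes. Cxcl10 (chromosome 5, 92346638 to 92348889) was at 0.0722, 3.69 and 13.5 FPKM with vehicle and 0.0580, 2.04 and 3.96 with GA. Its 2 highest values were in Vehicle libraries 2 and 6 and its 2 lowest in Vehicle library 1 and GA library 4. The log2 fold change was -1.32 (standard error 1.05, interval -3.59 to 0.95, exact permutation p = 0.268, n = 6 per group). Cxcl9 (chromosome 5, 92321347 to 92328079) was at 0.0179, 3.27 and 15.2 FPKM with vehicle and 0.158, 1.71 and 3.75 with GA. The difference was -0.97 on the log2 scale (exact permutation p = 0.426, standard error 1.05, n = 6 per group). Without Vehicle library 1, where both were near 0, the log2 fold changes were -2.16 for Cxcl10, -1.89 for Cxcl9, -1.27 for Gbp2 and -0.68 for Trim30a, each with an unadjusted p below 0.05 and an adjusted p of 1.00 in limma, against 2.55% of all genes at that unadjusted level. That library was the lowest Vehicle library for each of these genes, so leaving it out could only lower the fold changes and adds no support. With other single libraries left out they reached -0.72 for Cxcl10, -0.48 for Cxcl9, -0.47 for Gbp2 and -0.10 for Trim30a.

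**Figure D2:**
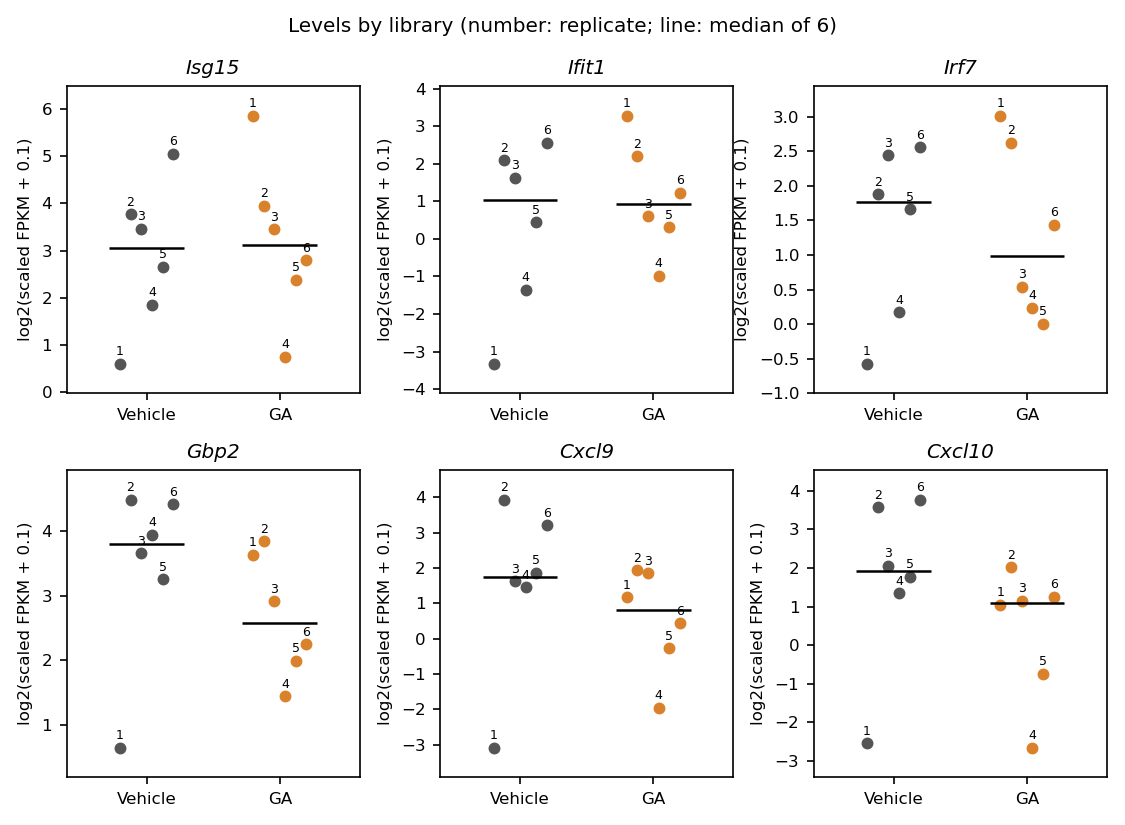
Level of 6 genes in each library as log2(scaled FPKM + 0.1), with Vehicle in grey and GA in orange, replicate numbers beside the points and a line at the median of 6. Vehicle 1 is the lowest Vehicle library in each panel, Isg15, Ifit1 and Irf7 are highest in GA 1, and Gbp2, Cxcl9 and Cxcl10 are highest in Vehicle 2 or 6.

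Differences between libraries of the same group were much larger than the difference between groups. The median SD over the 12 libraries was 1.10 on the log2 scale for the 40 genes and 0.388 for all tested genes, and group membership accounted for a median of 1.4% of the variance of these genes (3.85% for all genes). Mean log2 level of the type I group ranged over 11.0-fold between libraries and that of the gamma group over 18.2-fold. Vehicle library 1 was the lowest library for 34 of 40 genes, where 23.2% of all tested genes were lowest in it. GA library 4 was among the 3 lowest for 37 genes (22.4% of all tested genes) and GA library 5 for 25 (26.6%). At the upper end, GA library 1 was highest for 19 genes (6.46% of all tested genes), Vehicle library 6 for 10 (3.57%) and Vehicle library 2 for 6 (2.93%). Both extremes occurred in both groups.

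**Figure D3:**
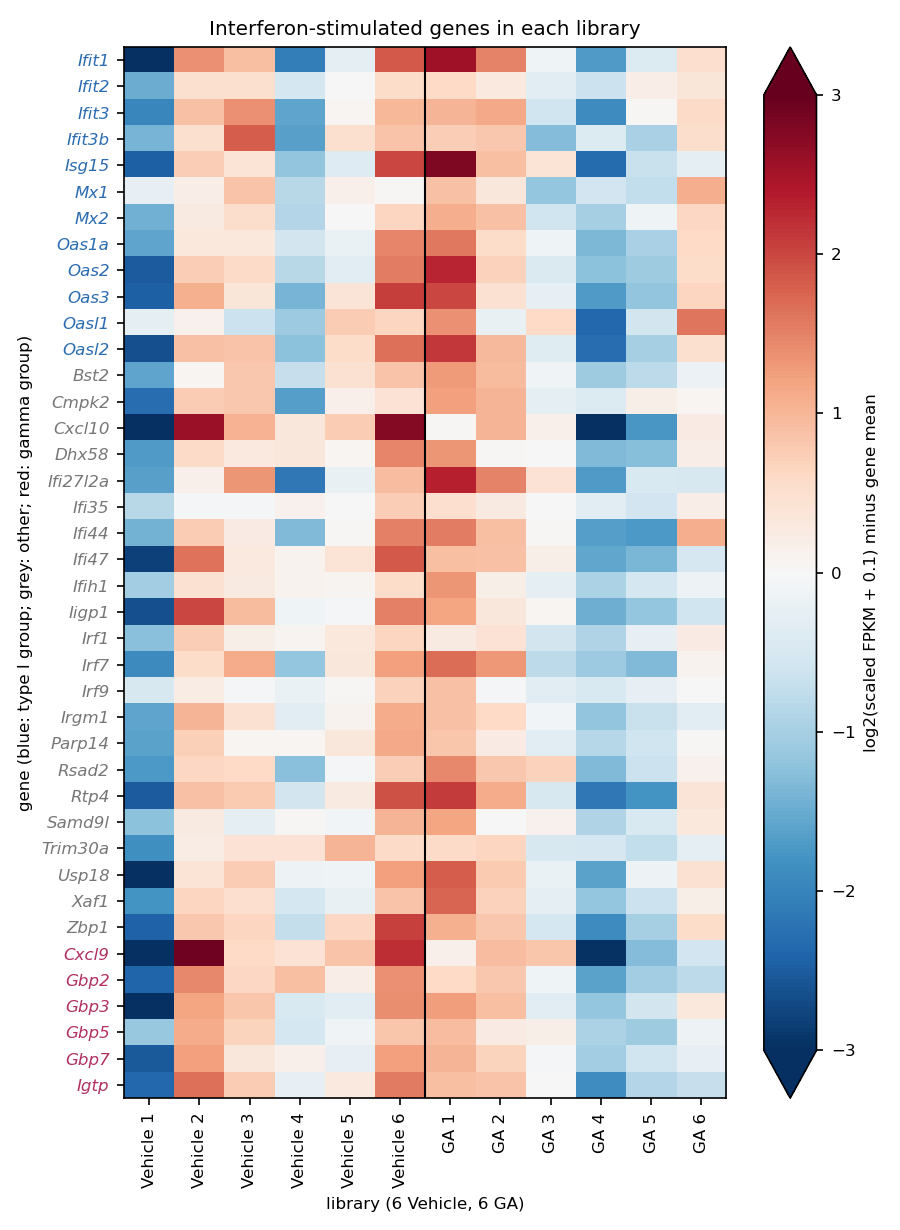
Level of each of 40 interferon-stimulated genes in each of 12 libraries, as log2(scaled FPKM + 0.1) minus the mean of the gene (red above, blue below, limits at 3). Vehicle 1 and GA 4 are blue for 40 of 40 genes and Vehicle 6 and GA 1 are red for 40 of 40, so that each side of the dividing line holds both a low and a high library.

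The type I and gamma groups varied together over libraries, with different libraries at the top. Over 12 libraries, the median Pearson r between pairs was 0.843 within the type I group (66 pairs), 0.917 within the gamma group (15 pairs) and 0.766 between the groups (72 pairs). It was -0.001 over all pairs of tested genes. Over all 780 pairs, 61.4% had an r above 0.8, compared with 1.33% of all gene pairs. These are descriptions, since all genes of a library come from the same tissue piece. Without Vehicle library 1 they were 0.812, 0.906 and 0.676. They were high within the Vehicle libraries (0.920, 0.952 and 0.875 in the same order) and within the GA libraries (0.821, 0.889 and 0.782). Mx1, Oasl1 and Ifit3b followed the type I mean least (r of 0.674, 0.613 and 0.783). Gbp3 tracked the type I mean (0.922) as closely as its own (0.916). Of the genes in neither group, Parp14, Trim30a, Dhx58, Irf1, Irgm1, Iigp1, Ifi47 and Cxcl10 lay closer to the gamma mean. The gap was small for Dhx58 (0.898 with the gamma and 0.848 with the type I mean). Ifi35 tracked both about equally (0.808 and 0.803 in the same order).

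**Figure D4:**
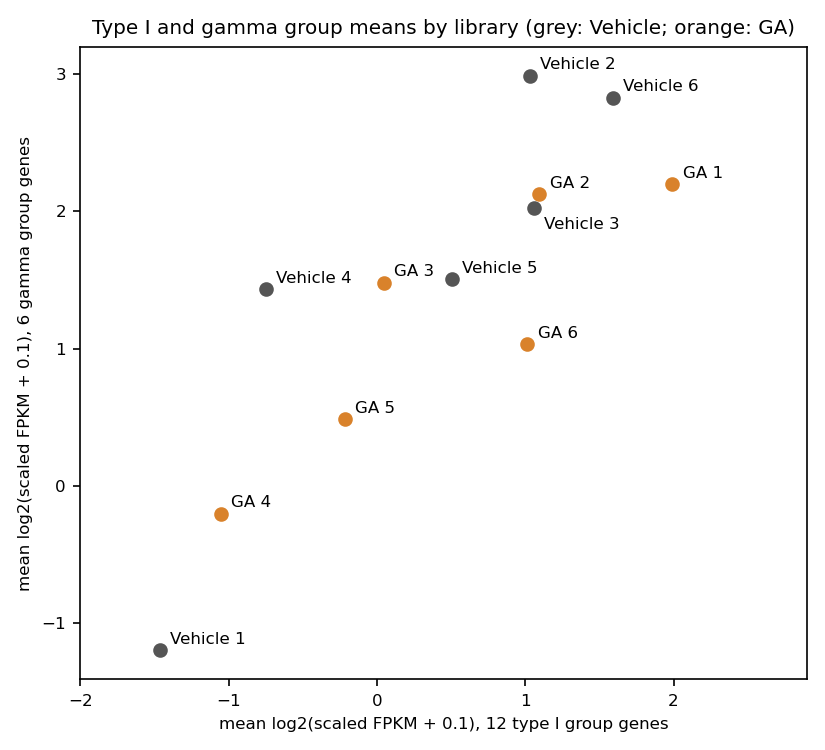
Mean log2(scaled FPKM + 0.1) of the 12 type I genes (x axis) against that of the 6 gamma genes (y axis) in each library. Libraries of both groups run from Vehicle 1 at the lower left to Vehicle 6 and GA 1 at the upper right, with Vehicle 2 and Vehicle 4 on the gamma side and GA 6 and GA 1 on the type I side.

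The balance of the 2 means, type I minus gamma on the log2 scale, was lowest in Vehicle libraries 4 (-2.18) and 2 (-1.96) and highest in GA libraries 6 (-0.02) and 1 (-0.21), with Vehicle library 1 next at -0.27. The average balance was -1.27 ± 0.703 for Vehicle libraries and -0.71 ± 0.524 for GA libraries (SD, n = 6), and the ranges overlapped. Isg15 and Ifit1 were highest in GA library 1 (57.9 and 9.61 FPKM), where Cxcl9 was 2.16 but the gamma mean still ranked 3 of 12. Cxcl9 was highest in Vehicle library 2 (15.2), where Isg15 was 13.6 and the type I mean ranked 5 of 12.

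For 10 gene pairs, Pearson r and Spearman rho were tested over 12 libraries by permutation with Benjamini-Hochberg adjustment over the pairs. Gbp2 and Igtp had an r of 0.952 (permutation p = 1e-05, the smallest the resamples can give, adjusted 0.0001) and a rho of 0.874 (permutation p = 0.00037). Gbp2 and Cxcl9 had an r of 0.948 (permutation p = 2e-05, adjusted 0.0001) and a rho of 0.860. Isg15 and its upstream factor Irf7 had an r of 0.870 (permutation p = 0.00015, adjusted 0.000375) and a rho of 0.930. Leaving out the 2 libraries farthest from the median of the first gene, r was 0.880, 0.863 and 0.780 for these pairs. Irf1 and Gbp2 had an r of 0.885, which was 0.688 without Vehicle library 1 and GA library 4. The pair from different branches, Isg15 and Gbp2, had an r of 0.749 (permutation p = 0.00524, adjusted 0.00655) and 0.725 without the 2 farthest libraries. Within the Vehicle libraries it was 0.816, within the GA libraries 0.893 and within libraries without Y-linked reads 0.922. Irf7 and Gbp2 gave 0.735 and 0.543. Ifng and Cxcl9 gave an r of 0.241 (permutation p = 0.451), from 0 to 4 Ifng reads per library.

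Upstream genes of the pathway differed in how far they tracked the 2 means. None of 9 interferon genes reached 0.1 FPKM on average, and Ifna2, Ifna4 and Ifnb1 had 0 reads in all 12 libraries, so interferon RNA was under the limit for testing at this depth. Ifng, the gamma ligand, reached at most 0.0844 FPKM with vehicle and 0.152 with GA. Of 11 receptor, kinase and STAT genes, 0 were called, with 2 higher and 9 lower in mean with GA. Jak2, a kinase of the gamma receptor, had an exact permutation p of 0.0152 and an adjusted p of 1.00 in limma (log2 fold change -0.35, standard error 0.12), at 10.2, 13.0 and 15.7 FPKM with vehicle and 8.85, 10.3 and 11.6 with GA. Over 12 libraries the receptor chains Ifnar2 and Ifngr1 had an r of 0.745 and 0.739 with the gamma mean and of 0.571 and 0.457 with the type I mean. Both were lowest in Vehicle library 1 (0.893 and 5.48 FPKM, against at least 1.76 and 8.10 with GA), where both means were also lowest. How far the r of single upstream genes rests on that library was not tested. Ifngr2 had 0.511 with both, Ifnar1 -0.09 with the type I mean and Jak2 0.146 with the gamma mean. Among sensors, Rigi had an r of 0.948 with the type I mean and 0.883 with the gamma mean. For Aim2 these were 0.693 and 0.894, and both sensors were likewise lowest in Vehicle library 1. Stat2, which is itself induced by interferon, followed both means, with an r of 0.889 for type I and 0.851 for gamma. Its level was 1.92, 3.30 and 5.81 FPKM with vehicle and 1.39, 3.27 and 5.24 with GA (log2 fold change -0.28, standard error 0.36), and the groups overlapped.

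Other genes of the pathway were listed by role. Among 9 further IRF factors and coactivators, 2 were higher and 7 lower with GA, and among 11 sensors and adaptors 4 were higher and 7 lower. Ticam1, the TLR3 adaptor, was at 2.42, 2.93 and 3.64 FPKM with vehicle and 3.51, 3.57 and 4.37 with GA (log2 fold change 0.33, exact permutation p = 0.0108, adjusted p = 1.00 in limma). The 4 negative regulators had 1 higher and 3 lower. Among 38 further type I induced genes 9 were higher and 29 lower (median -0.17), and among 20 tested further gamma induced genes 5 were higher and 15 lower (median -0.19). Across these lists, 93 tested genes held 0 called and 2 (Jak2 and Ticam1) at an unadjusted p below 0.05, a share close to the 2.16% of all genes. Cxcl11 and Gm12250 were not analysed here.

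Outside the 40 genes and with a mean of at least 1 FPKM (12129 candidates), the genes closest to the type I mean over 12 libraries were Apol9b (r = 0.972), Trim12c (0.966), Rigi (0.948) and Oas1g (0.942), followed by H2-T23, Stoml1, Mndal, Lgals3bp, F830016B08Rik and Irgm2. Those closest to the gamma mean were Tgtp1 (0.986), Irgm2 (0.976), Tgtp2 (0.965) and Psme1 (0.941), followed in part by Psmb8, Psmb9, Cd274, Psmb10 and Trim12c. Psmb8, Psmb9, Psmb10 and Psme1 encode parts of the immunoproteasome and its activator, which cut peptides for antigen presentation. The log2 fold changes with GA of these named genes lay between -0.42 (Tgtp1) and 0.29 (Mndal).

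Markers of immune cells varied with both means. Over 12 libraries the T and NK cell marker mean had an r of 0.747 with the type I mean and 0.845 with the gamma mean, and that of monocytes and macrophages 0.712 and 0.676. Of 11 tested T and NK markers 7 were higher and 4 lower with GA, and of 11 macrophage markers 5 and 6, with 0 called in either list. Neutrophil markers were lower with GA for 11 of 11 (median log2 fold change -0.76) and oral epithelium markers for 7 of 8, while skeletal muscle markers were higher for 8 of 10, again with 0 called. The 11 are not separate observations. Csf3r, Cxcr2, Retnlg, Mmp8, Mmp9, Clec4d, Clec4e and Trem1 were all highest in Vehicle library 5 (Csf3r 16.0 FPKM, Vehicle median 0.538). S100a8 and S100a9 were highest in Vehicle library 6 and Il1r2 in Vehicle library 1. For Cxcr2 and Mmp8 the median was higher with GA. T and NK markers summed to 1.29 to 6.00 FPKM with vehicle and 2.45 to 5.63 with GA, lowest in Vehicle library 1, and Cd8a, Gzma and Ncr1 were at 0 in at least 1 library of each group. Macrophage markers summed to 36.2 to 168 FPKM with vehicle and 27.0 to 153 with GA. Skeletal muscle markers also tracked the means (r = 0.643 and 0.674) and were lowest in Vehicle library 1 (1323 FPKM against 1923 or more). The T and NK markers and both group means were lowest there too, and r without that library was not computed. Plasmacytoid dendritic cells, a rich source of type I interferon, had markers that summed to 0.246 to 1.07 FPKM, with an r of 0.267 for the type I mean. Neutrophil markers (0.053 and 0.267) and total reads (-0.02 and -0.20) followed the means little. Adding the macrophage mean as a term, chosen after seeing the data, gave median log2 fold changes of 0.24 for the type I and -0.28 for the gamma group, and adding the muscle mean gave -0.01 and -0.61. The part of the other cell types in the levels was not tested.

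Mean differences were described separately in libraries with and without Y-linked reads. In the 7 libraries without Y-linked reads (2 Vehicle, 5 GA), the mean was lower with GA for 40 of 40 genes, where 48.1% of all genes were lower. In the 5 with Y-linked reads (4 Vehicle, 1 GA) it was higher with GA for 39 of 40, where 47.6% of all genes were higher, and Cxcl10 was at -0.06. Both directions together were found for 20.1% of all genes. The 40 genes move together, so this count is not 40 separate observations, and the second contrast rests on GA library 1 alone. The first rests on 2 Vehicle libraries, of which library 6 was among the 3 highest of all 12 for 35 genes and library 5 for 2. Their type I means were 1.59 and 0.51 on the log2 scale, where GA libraries 2 to 6 ran from -1.05 to 1.10. Median log2 differences without Y-linked reads were -0.89 for the type I group and -1.05 for the gamma group.

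Isg15 was at 6.21 and 33.2 FPKM in Vehicle libraries 5 and 6 and between 1.58 and 15.4 in GA libraries 2 to 6. In the libraries with Y-linked reads it was at 1.42 to 13.6 with vehicle and 57.9 with GA. The corresponding log2 differences were -1.19 and 3.44. In the same contrasts Parp14 gave -1.04 and 1.02, and Irf9 gave -0.57 and 1.01. At an unadjusted p below 0.05 in the libraries without Y-linked reads stood Parp14, Trim30a (-1.07) and Irf9, against 2.49% of all genes. Parp14 and Irf9 were the 2 genes for which all 5 GA libraries without Y-linked reads lay below both Vehicle libraries, where 5.41% of all genes did not overlap in either direction. An interaction of treatment with Y-linked reads was fitted in limma after these directions were seen, with the single GA library assumed to vary like the others. Its adjusted p was below 0.1 for 0 of 40 genes, against 0.0356% of all genes. Its unadjusted p was below 0.05 for 13 of 40, against 2.1% of all genes, which restates the directions above for genes that vary together and adds no support to them. When Y-linked reads entered the fit of all 12 libraries as an additive term, the medians were 0.12 for the type I group and -0.36 for the gamma group. T and NK markers summed to 4.77 and 5.69 FPKM in Vehicle libraries 5 and 6, 2.45 to 5.36 in GA libraries 2 to 6 and 5.63 in GA library 1. Their part in this difference was not tested.

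**Figure D5:**
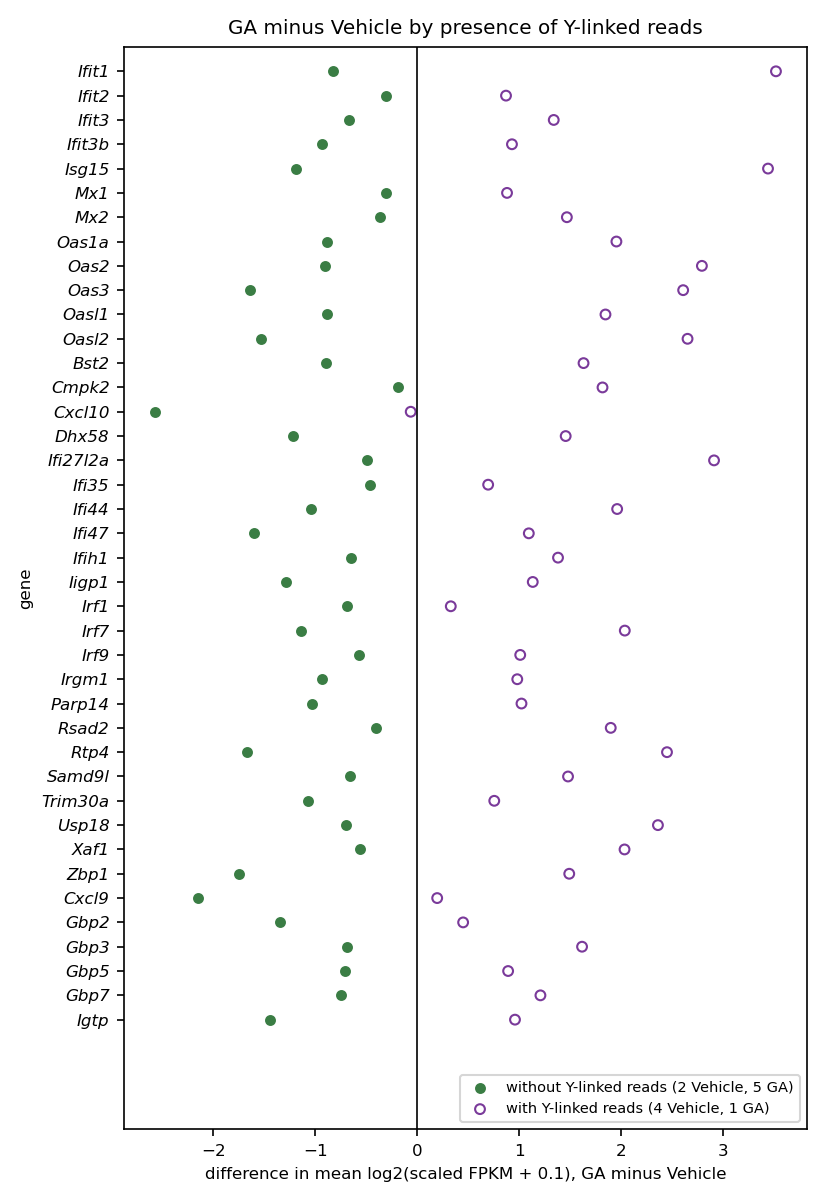
Difference in mean log2(scaled FPKM + 0.1), GA minus Vehicle, for each of 40 genes in 7 libraries without Y-linked reads (filled, 2 Vehicle and 5 GA) and 5 libraries with them (open, 4 Vehicle and 1 GA). Filled points lie below 0 for 40 of 40 genes and open points above 0 for 39 of 40, the latter resting on GA library 1.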

How the data were processed

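Tongue RNA from Vehicle and GA mice was sequenced in 12 libraries (6 Vehicle, 6 GA), 1 library per sample. Alignment by the authors used HISAT2 and mm10, followed by gene-level counting of unique alignments in featureCounts, and FPKM values were deposited. Whether counting used strand is not given in the sources used here. Rows without a gene name (22965 of 55463, 41.4%) were left out. Library totals and reads per gene were recovered from the low FPKM values with GENCODE M21 exon lengths shortened by a number of bases set by the library total. With this length, 97.8% to 98.3% of low values per library were whole reads within 0.02. Totals were 18040152 to 25192491 reads, and precision beyond counting error rests on 6 libraries per group.

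Between-library scaling used trimmed means of log ratios. The 16847 genes averaging 0.1 FPKM or more were fitted with limma 3.58.1 (R 4.3.3, trend) on log2(FPKM + 0.1), a scale that understates changes of low genes. A gene was called at the limits of the study, a Benjamini-Hochberg adjusted p below 0.1 with a log2 fold change of 0.58 or more either way. The authors applied these limits in edgeR, a different test, and reported significant genes. The 0 genes called here are therefore not the outcome of their test. Single genes also had an exact two-sided permutation test over 924 assignments (smallest p 0.00216), and gene pairs had 100000 resamples. The script was tested on simulated data. Alternatives changed the pseudocount, filter, scaling, covariates and libraries. limma-voom on recovered reads (16108 genes, 0 called), the macrophage term and the interaction with Y-linked reads were added after seeing the data. The 40 genes, the marker and pathway lists and the choice of named genes (all members, pathway genes in a ligand, receptor, STAT or factor role or with an unadjusted p below 0.05, and the 10 genes nearest to each group mean) were made with earlier results of these data known. Results for 1 gene of the pathway lists are not reported here.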

Additional observations from a re-analysis of the deposited data

Results flagged for a closer look

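Within groups of 6 libraries, a value was taken as standing apart when its gap to the nearest other library took up more of the range of log2 levels than Dixon's 95% critical value allows. Of 84 groups of values examined, 9 had such a library (10.7%), where chance gives about 1 in 20, and the genes are not independent of each other.

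Vehicle library 1 stood apart at the low end for 7 genes and for the gamma mean. The gap ratio was 0.688 for Usp18 (0.0388 FPKM against 1.07 in the next library), 0.725 for Trim30a (0.289 against 1.54), 0.708 for Ifih1 (0.733 against 1.72) and 0.668 for Irf1 (1.55 against 4.06). It was 0.678 for Gbp2 (1.46 against 9.45), 0.627 for Ifi47 (0.219 against 2.29), 0.647 for Cxcl9 (0.0179 against 2.64) and 0.629 for the mean of the gamma group. The same library had the lowest sum of T and NK markers (1.29 FPKM) and of skeletal muscle markers (1323 FPKM), and its total of 20361039 reads was within the range of the Vehicle group. Whether these differences account for the low values was not tested.

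GA library 1 stood apart at the high end for Irf9, with a gap ratio of 0.675 (10.1 FPKM against 5.33). It is the single GA library with Y-linked reads.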

How the results depend on the processing

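In none of 26 alternative fits was any of the 40 genes called. The count of all genes called was 2 in libraries without Y-linked reads (the small RNA genes Gm25290 and Gm23390), 0 to 1 with 1 library left out (Gm25290 without Vehicle library 4) and 328 at an unadjusted p below 0.1 with the same limit of fold change, which counted 0 of the 40. The number of the 40 at an unadjusted p below 0.05 was 3 in libraries without Y-linked reads (Parp14, Trim30a and Irf9, all lower with GA, against 2.49% of all genes) and 0 to 4 with 1 library left out, reaching 4 without Vehicle library 1. That library was the lowest Vehicle library for each of those 4 genes. The type I median of 0.12 became -0.89 without the Y-linked libraries and -0.01 with a muscle term, and ran from -0.19 (without GA library 1) to 0.45 (without GA library 4) with 1 library left out. It was also below 0 without Vehicle libraries 1 or 4 or GA library 6. The gamma median of -0.42 ranged from -0.83 (without Vehicle library 1) to -0.18 (without GA library 4), and was -1.05 without the Y-linked libraries. Mean differences changed sign in at least 1 fit for 28 genes and in none for 12 (Parp14, Trim30a, Dhx58, Irf1, Gbp2, Gbp5, Igtp, Irgm1, Iigp1, Ifi47, Cxcl9 and Cxcl10, all lower with GA). The fits share libraries and the genes vary together, so these are not separate observations, and no share over all genes is given. The contrast within libraries with Y-linked reads was not among these fits, and there 11 of the 12 were higher with GA and Cxcl10 was lower. The causes were not tested. Replicate numbers did not pair the libraries (r of deviations -0.37 to 0.08), and a replicate block left 0 genes called, with medians of 0.12 and -0.42. Depth limits Mx2, Oas3, Ifit1 and Cxcl9, which had 0 or 1 read in some library.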
